A study of Mus musculus with 5 samples.

Results

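Genes of fibroblast growth factor, insulin-like growth factor and hepatocyte growth factor signalling were followed across the cell types of the mouse mammary gland. They are 10 in number, the ligands Fgf2, Fgf7, Fgf10, Igf1 and Hgf, the receptors Fgfr1, Fgfr2 and Igf1r, and the binding proteins Igfbp3 and Igfbp5. They were chosen by name, with earlier results of these data known, and all 10 were found among the 32285 genes of the deposited tables. The measurements are droplet single-cell RNA counts of whole mammary gland from 5 mice, with 1 library per mouse. Mice labelled Frmd3 knockout gave 3 libraries (KO1, KO2, KO3) and wild-type mice gave 2 (WT1, WT2); the labels used here give tissue and genotype, and no strain, age, stage or treatment is stated. Lists of 5 values follow the order KO1, KO2, KO3, WT1, WT2.

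These factors carry messages between the stroma and the epithelium of the gland. Fibroblast growth factors bind receptor tyrosine kinases together with heparan sulfate; FGF7 and FGF10 act on an epithelial splice form of FGFR2, and loss of Fgf10 or Fgfr2 is known to block the formation of mammary buds in the mouse embryo. IGF1 is made in the gland under growth hormone, acts through IGF1R and is needed for the growth of ducts, while IGF-binding proteins hold the ligand in fluid or matrix and change its access to the receptor. HGF is secreted by stromal cells and acts on the receptor MET of epithelial cells.

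The libraries held 24197344 to 87577099 unique molecular identifiers (UMIs, which count captured transcripts). After filtering, 26834 cells were used, with a median depth of 4393 UMIs in KO1 and 6691.5 to 12607 in the others. Pairs of libraries shared 3 to 22 cell barcodes. Cells were grouped without the 10 genes and without the other genes of their pathways, and groups were named "-like" from marker lists. Of 36 clusters 5 stayed unnamed, and these held 38.8% of the cells of KO1 against 1.80% to 4.20% of the others. Frmd3 itself was counted 139, 194, 38, 73 and 192 times, or at 2.03, 3.28, 1.72, 1.44 and 2.45 CPM (UMIs of a gene per 1e6 UMIs). The ranges of the labelled genotypes overlapped; the kit reads the 3′ end and the labels do not give the deleted stretch, so these counts do not check the labels. The library labelled KO3 stood apart in the epithelium. Its luminal progenitor-like cells carried 788 CPM of the 8 hormone-sensing markers, against 153 to 274 in the other libraries. Its hormone-sensing luminal-like cells carried 2787 CPM of the 10 luminal progenitor markers, against 289 to 467. The hormone-sensing class also held different clusters in different libraries: cluster 10 held 287 of its 296 cells in KO1 and 609 of 628 in WT1, cluster 2 held 1287 of 1573 in KO2 and 818 of 983 in WT2, and cluster 19 held 122 of 178 in KO3.

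Levels are given as CPM within a cell class of a library, for classes with at least 20 cells in the library. They are means ± SD over libraries, and n is the number of libraries. Fibroblast-like cells numbered 3022, 1404, 1000, 1730 and 2393, and all 7 fibroblast markers were detected in every library there. Luminal progenitor-like cells numbered 779, 399, 49, 734 and 278, hormone-sensing luminal-like cells 296, 1573, 178, 628 and 983, and basal/myoepithelial-like cells 130, 32, 38, 133 and 69. For these 3 epithelial classes, all 10 luminal progenitor markers and all 9 basal markers were detected in every library in their own class, and 7 or 8 of the 8 hormone-sensing markers. Because the mice are few, the class levels are descriptions; tests were made between epithelial classes and between genotype labels.

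**Figure D1:**
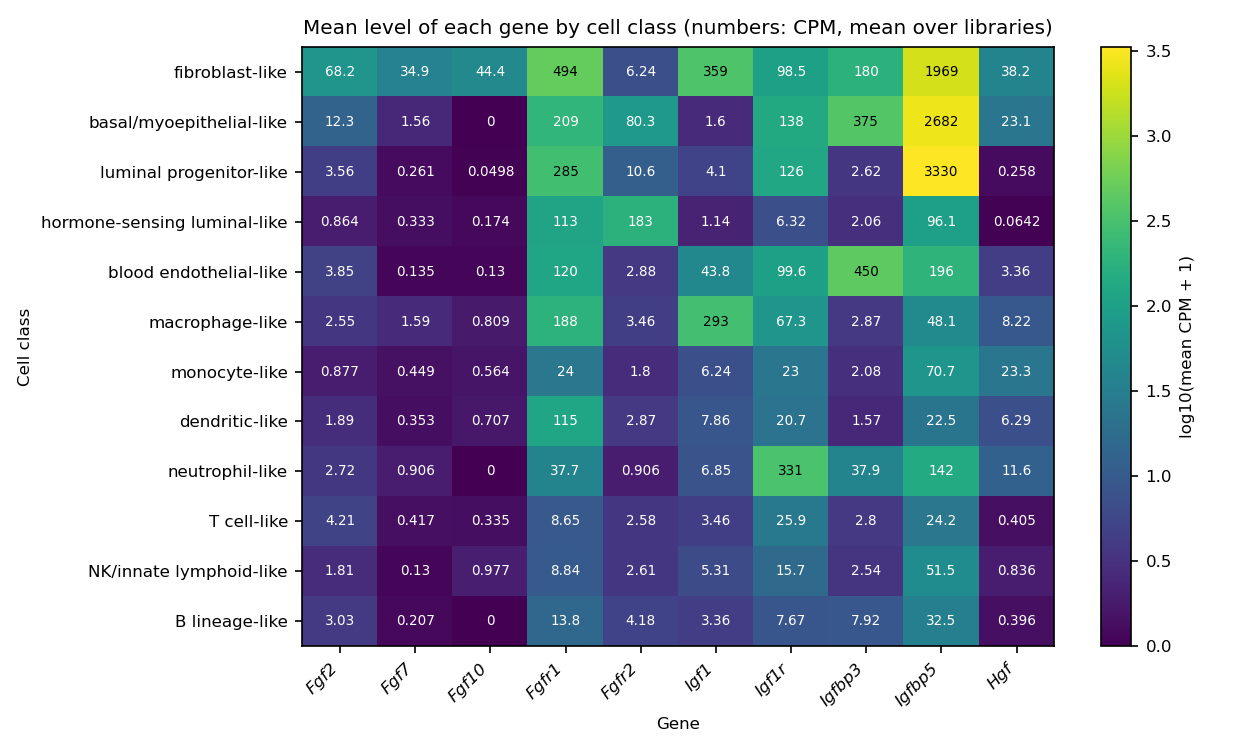
Mean CPM of each of the 10 genes (columns) in the 12 cell classes with at least 4 libraries (rows); colour is log10(mean CPM + 1). Fgf2, Fgf7 and Fgf10 are high in the fibroblast-like row, Fgfr2 in the hormone-sensing luminal and basal rows, and Igf1r is at 6.32 CPM in the hormone-sensing luminal row.

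Most UMIs of the 3 fibroblast growth factors lay in fibroblast-like cells. Fgf2 (chromosome 3, 37348346 to 37410108 on mm10) encodes a broadly acting factor without a classical signal peptide. It stood at 87.2, 68.9, 35.5, 64.5 and 85.1 CPM in fibroblast-like cells (68.2 ± 20.8, n = 5), and that class held 84.8% to 94.5% of the Fgf2 UMIs of each library. KO3 was lowest, and the ranges of the labelled genotypes overlapped. Among the 12 classes with at least 4 libraries basal/myoepithelial-like cells were next with 12.3 ± 6.48 CPM (n = 5); Schwann/glial-like cells, with at least 20 cells in 3 libraries, had 69.4 ± 38.4 CPM from 50 UMIs. The 2 luminal classes were at 3.56 ± 1.41 and 0.864 ± 0.55.

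Fgf7 (chromosome 2, 126034658 to 126091185), or keratinocyte growth factor, is a stromal factor that acts on epithelium. Fibroblast-like cells held 32.9, 35.4, 29.2, 39.2 and 37.9 CPM (34.9 ± 4.01, n = 5) and 87.2% to 98.4% of each library's UMIs of the gene. No other named class with 4 or more libraries exceeded 1.59 CPM on average. The 5 libraries were closer to each other for this ligand than for the others in this class.

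Fgf10 (chromosome 13, 118669791 to 118792115) is the mesenchymal factor of branching organs. Its levels in fibroblast-like cells were 52.8, 14.3, 84.1, 56.8 and 13.99 CPM (44.4 ± 30.1, n = 5), with 86.9% to 98.3% of each library's UMIs. KO2 and WT2 were low and the other 3 high, so that the spread lay within each genotype label. In basal/myoepithelial-like cells there were 0 UMIs in every library, which allows up to 1.98 to 6.13 CPM at 3 counts per library. Luminal progenitor-like cells held 2 UMIs of the gene in all and hormone-sensing ones 9. Thinned to 2000 UMIs per cell, 5.80% ± 3.09 of fibroblast-like cells had a Fgf10 UMI, against 0.0539% ± 0.12 of T cell-like cells, which should lack the gene.

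Igf1 (chromosome 10, 87858265 to 87937042) came from fibroblast-like and from macrophage-like cells. The levels in fibroblast-like cells were 252, 560, 325, 216 and 441 CPM (359 ± 142, n = 5), highest in KO2 and lowest in WT1. Macrophage-like cells held 357, 233, 300.0, 283 and 292 CPM (293 ± 44.3, n = 5), and the means of these classes differed by less than the spread between libraries. Within libraries fibroblast-like cells were higher in 3 of 5. The 7 fibroblast markers summed to 250.0 to 1151 CPM in macrophage-like cells and to 30441 to 68269 CPM in fibroblast-like cells. Thinned to 2000 UMIs, 37.6% ± 10.4 of fibroblast-like and 39.3% ± 8.29 of macrophage-like cells had an Igf1 UMI, against 0.760% ± 0.53 of T cell-like cells. Fibroblast-like cells held 78.9% to 95.7% of each library's Igf1 UMIs. Epithelial classes were at 1.14 to 4.10 CPM on average. Igf2, the other ligand of IGF1R, was at 4.23 ± 3.47 CPM in fibroblast-like cells.

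Hgf (chromosome 5, 16553495 to 16620152), hepatocyte growth factor, had 52.8, 14.4, 67.9, 41.8 and 14.2 CPM in fibroblast-like cells (38.2 ± 23.7, n = 5). As with Fgf10, KO2 and WT2 were lowest. Monocyte-like cells held 22.6, 14.4, 29.1, 23.5 and 26.8 CPM (23.3 ± 5.60, n = 5). Basal/myoepithelial-like cells held 34.6, 6.13, 23.6, 41.2 and 9.88 CPM (23.1 ± 15.2, n = 5) from 118 UMIs. KO2 and WT2 were low there too, on 3 and 15 UMIs. The means of these 3 classes differed by less than the spread between libraries. Within libraries, fibroblast-like cells were above basal/myoepithelial-like cells in 5 of 5 and above monocyte-like cells in 4 of 5. Fibroblast markers summed to 291 to 603 CPM in the basal class. Luminal progenitor-like cells had 8 Hgf UMIs in all libraries together and hormone-sensing luminal-like cells 4.

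The fibroblast-like cells were not uniform, and the ligands differed in level among their 7 clusters. Cluster 0 was led by Cxcl13, Pi16 and Dpp4, genes of a progenitor-like adventitial fibroblast. Cluster 9 was led by Krtdap, Sbsn and Dmkn, and cluster 15 by Efhd1 and Akr1c18. Pi16 and Dpp4 were not particular to cluster 0. With libraries summed, Pi16 stood at 2901, 3302 and 3265 CPM in clusters 0, 9 and 15. Dpp4 stood at 547, 512 and 494 CPM in the same order. In clusters 4, 6, 8 and 22 Pi16 was at 55.4 to 190 CPM. Akr1c18 was at 671 CPM in cluster 9 and 686 CPM in cluster 15. Cluster 4 was led by Scg3, Adam12 and Cxcl9, with Fgf10 itself and Bmper among its 10 leading genes, although Fgf10 had no part in the clustering. Cluster 8 was led by Enpp2 and Mme, cluster 6 by Gdf10, Clec11a and Fmo2, and cluster 22 by Thbs4 and Apod. No cell type is assigned to the clusters here, and their levels are given without a test.

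Fgf10 was highest in cluster 4 in all 5 libraries, at 159, 73.8, 168, 167 and 64.8 CPM (126 ± 52.4, n = 5), while the means of the other 6 clusters lay between 6.23 and 23.2 CPM. KO2 and WT2 were again the lowest inside cluster 4, with 37 and 111 cells there. Hgf spread over clusters 8, 4 and 6, at 94.4 ± 17.1 (n = 4), 79.8 ± 29.99 (n = 5) and 51.6 ± 7.04 CPM (n = 5). In clusters 0, 9 and 22 it averaged 4.99 to 10.6 CPM. Cluster 15 had 0 UMIs of Hgf, which allows up to 3.62 to 32.6 CPM at 3 counts per library. Within cluster 6 the Hgf levels were 54.2, 60.9, 52.5, 48.3 and 41.9 CPM, so KO2 and WT2 did not stand apart in this cluster.

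Fgf7 was highest in cluster 6, at 77.9, 54.6, 77.9, 83.2 and 57.0 CPM (70.1 ± 13.3, n = 5), followed by cluster 0 at 45.2 ± 4.57. Cluster 6 was also the richest in Igf1, with 597, 1060, 691, 366 and 860 CPM (715 ± 263, n = 5). It also had the most Igfbp3, with 498, 520, 550.5, 458 and 938 CPM (593 ± 196, n = 5). Fgf2 was highest elsewhere, in cluster 9 (135 ± 33.6, n = 5) and cluster 0 (99.8 ± 26.7, n = 5), and at 14.2 to 27.0 CPM in clusters 4, 6, 8 and 22. Igfbp5 was highest in cluster 9 too, with 6987, 6764, 5683, 7016 and 7400 CPM in cluster 9 (6770 ± 649, n = 5) and 30.3 ± 18.3 CPM (n = 4) in cluster 8. The 5 libraries of cluster 9 did not overlap with those of cluster 8 for either gene. Igf1 was lowest in cluster 9, at 74.4 ± 56.9 CPM (n = 5). Inside each of the 7 clusters the lowest Igf1 level was that of WT1. Fgfr1, a receptor that fibroblasts themselves use, was at 633 ± 67.0 in cluster 0 and 701 ± 128 CPM in cluster 9, against 251 to 434 CPM on average in the others.

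**Figure D2:**
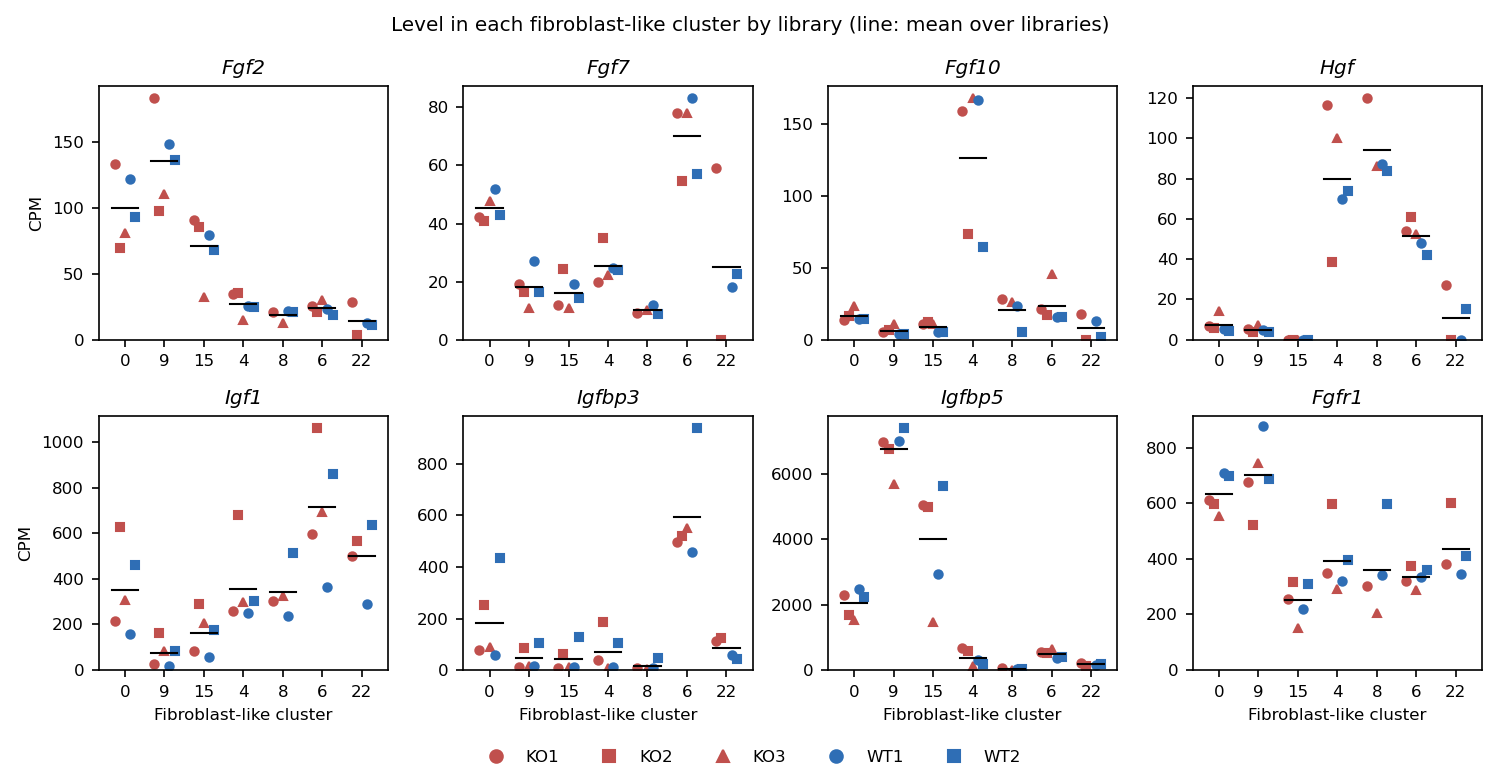
CPM of 8 genes in the 7 fibroblast-like clusters, 1 point per library with at least 20 cells and a line at the mean. Fgf10 is high in cluster 4, Hgf in clusters 4, 8 and 6, Fgf7, Igf1 and Igfbp3 in cluster 6, Fgf2 in clusters 9 and 0, and Igfbp5 in clusters 9 and 15.

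The clusters were not equally represented in the libraries. Clusters 4 and 8 together made up 44.2%, 3.06%, 58.9%, 47.7% and 6.44% of the fibroblast-like cells. KO2 and WT2, the 2 libraries with the least Fgf10 and Hgf over the whole class, held the fewest of these cells. Clusters 0, 9 and 15 together made up 43.8%, 78.3%, 31.7%, 36.8% and 73.8%. The part of these shares in the class levels was not tested. Inside cluster 4 alone, the KO2 value of both ligands was below those of KO1 and KO3, from 37 cells with 21 Fgf10 and 11 Hgf UMIs. Of the wild-type libraries, WT2 was below WT1 there for Fgf10 (64.8 against 167 CPM) but not for Hgf (73.8 against 69.7 CPM).

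**Figure D3:**
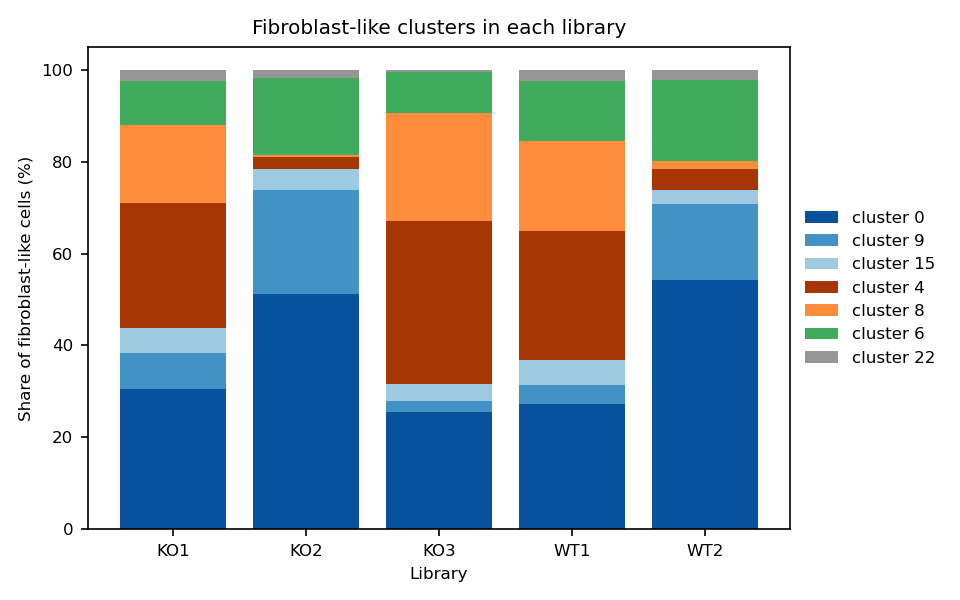
Share of fibroblast-like cells in each of the 7 clusters (stacked, in percent) for each library. Clusters 4 and 8 hold 3.06% of these cells in KO2 and 6.44% in WT2, against 44.2% to 58.9% in KO1, KO3 and WT1.

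The receptors divided the epithelium. Fgfr1 (chromosome 8, 25513654 to 25575718) was broad. Its levels were 475, 538, 351, 485 and 622 CPM in fibroblast-like cells (494 ± 98.9, n = 5) and 285 ± 68.6 in luminal progenitor-like cells. Basal/myoepithelial-like cells had 209 ± 26.9, macrophage-like cells 188 ± 57.0 and hormone-sensing luminal-like cells 113 ± 10.4 CPM. T cell-like cells had 8.65 ± 5.30 CPM. Between the basal and macrophage-like classes the difference was smaller than the spread between libraries, as it was for each step down the order of means from there to the hormone-sensing class.

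Fgfr2 (chromosome 7, 130162451 to 133123350), the receptor of FGF7 and FGF10 in epithelium, was highest in 2 epithelial classes. Hormone-sensing luminal-like cells held 164, 199, 189, 159 and 204 CPM (183 ± 20.5, n = 5) and basal/myoepithelial-like cells 65.9, 65.3, 94.3, 102 and 74.4 CPM (80.3 ± 16.7, n = 5). Luminal progenitor-like cells held 1.79, 6.15, 38.3, 2.49 and 4.49 CPM. The value of KO3 comes from 49 cells and goes with the hormone-sensing markers described above; their part in it was not tested. All 5 hormone-sensing values lay above all 5 basal values, and all of those above all 5 luminal progenitor values. Thinned to 2000 UMIs, 30.4% ± 3.94 of hormone-sensing, 12.6% ± 4.83 of basal and 1.22% ± 0.90 of luminal progenitor-like cells had an Fgfr2 UMI, against 0.553% ± 0.43 of T cell-like cells. Fibroblast-like cells held 6.24 ± 1.92 CPM, which did not separate from the luminal progenitor mean of 10.6 ± 15.6. Outside the epithelial classes, an unnamed cluster led by Retnla and Lyve1 held 271 Fgfr2 UMIs in KO1 (26.7 CPM, 20.1% of that library's UMIs of the gene), and erythroid-like cells of WT1 held 25 (46.4 CPM). The 3′ counts do not tell the epithelial from the mesenchymal splice form.

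Igf1r (chromosome 7, 67952827 to 68233668), the receptor of IGF1, gave the reverse picture in the luminal classes. It stood at 141, 103, 139, 147 and 100.2 CPM in luminal progenitor-like cells (126 ± 22.6, n = 5) and at 152, 135, 121, 162 and 121 CPM in basal/myoepithelial-like cells (138 ± 18.5, n = 5). Hormone-sensing luminal-like cells held 1.99, 5.73, 17.2, 1.82 and 4.89 CPM (6.32 ± 6.31, n = 5), the lowest mean of the 12 classes and below the 25.9 ± 7.45 CPM of T cell-like cells. KO3 was the highest here, and it is the library whose hormone-sensing luminal-like cells carried more luminal progenitor markers. Neutrophil-like cells had 388, 265, 334 and 337 CPM in KO1, KO2, WT1 and WT2 (331 ± 50.5, n = 4), from 178 UMIs, above every other class in each of these libraries. Fibroblast-like cells held 98.5 ± 7.28 CPM (n = 5).

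The binding proteins also separated the epithelial classes. Igfbp3 (chromosome 11, 7206086 to 7213923) encodes the main carrier of IGF1 in serum. In basal/myoepithelial-like cells it stood at 346, 353, 168, 440 and 567 CPM (375 ± 146, n = 5), and in the 2 luminal classes at 2.62 ± 1.62 and 2.06 ± 1.76. Fibroblast-like cells held 88.1, 244, 62.2, 85.7 and 419 CPM (180 ± 152, n = 5), with KO2 and WT2 highest. Blood endothelial-like cells held 181, 273, 20.7, 69.7 and 1704 CPM (450 ± 708, n = 5). The mean of that class rests on WT2, which had 28 such cells; fibroblast markers summed to 2504 CPM there and to 3437 CPM in KO1. Without WT2 the class with the highest mean was the basal one, at 327 CPM.

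Igfbp5 (chromosome 1, 72857932 to 72874884) encodes a binding protein of matrix and milk that is known to rise when the gland involutes. Luminal progenitor-like cells held 5055, 1873, 3211, 5017 and 1492 CPM (3330 ± 1684, n = 5), and basal/myoepithelial-like cells held 4147, 1946, 1552, 4489 and 1275 CPM (2682 ± 1518, n = 5). In both classes KO1 and WT1 were highest. Fibroblast-like cells held 1969, 2918, 666, 1424 and 2870 CPM (1969.5 ± 963, n = 5), and the means of these 3 classes differed by less than the spread between libraries. Within libraries the luminal progenitor class was above the basal one in 4 of 5 and above the fibroblast-like one in 3 of 5. Hormone-sensing luminal-like cells held 17.1, 16.5, 403, 11.2 and 32.5 CPM, and T cell-like cells 25.5, 20.9, 0, 47.4 and 27.1 CPM. In every library but KO3 the hormone-sensing value was at most 32.5 CPM, within the range of T cell-like cells. Thinned to 2000 UMIs, 90.9% ± 7.64 of luminal progenitor-like cells had an Igfbp5 UMI, against 8.01% ± 10.4 of hormone-sensing and 4.11% ± 2.52 of T cell-like cells.

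**Figure D4:**
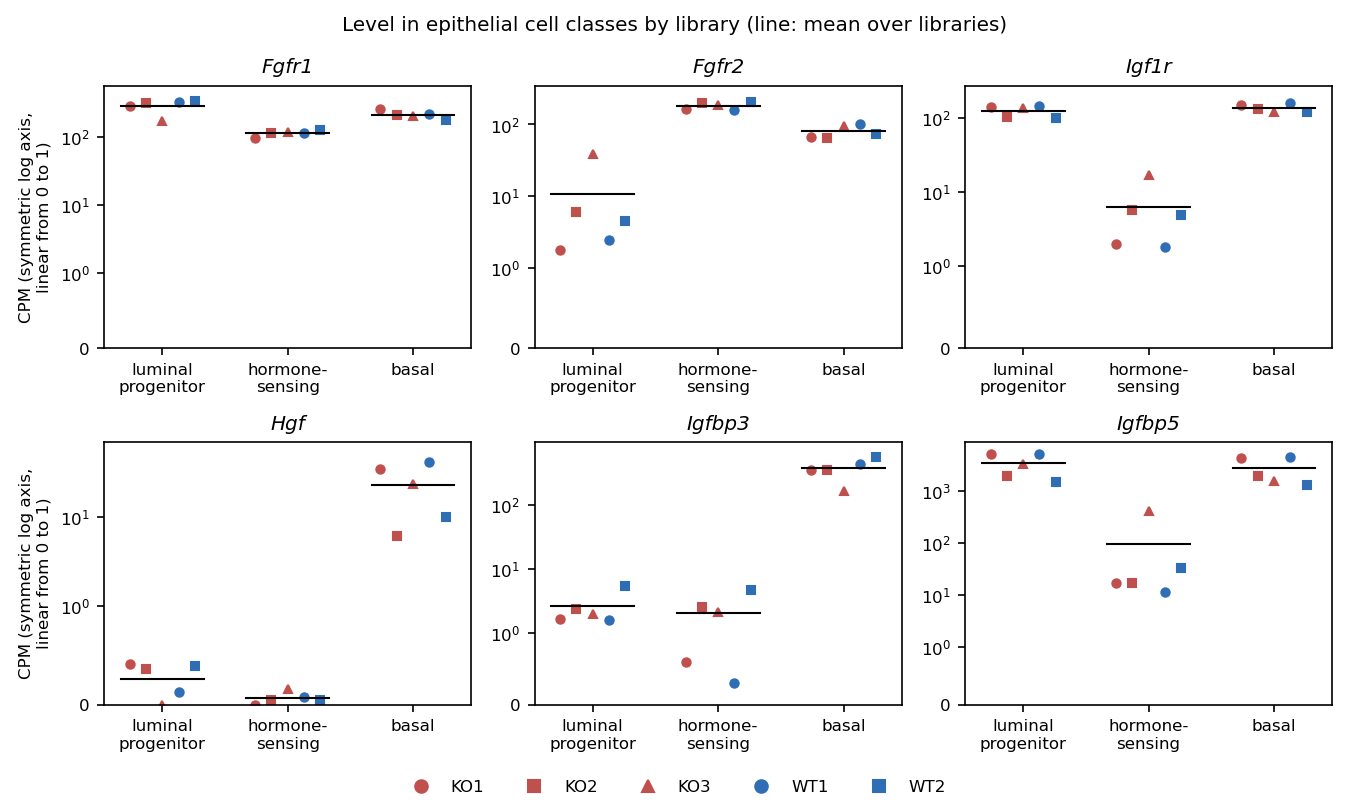
CPM of 6 genes in the 3 epithelial classes, 1 point per library and a line at the mean, on a symmetric log axis that is linear from 0 to 1. Igf1r and Igfbp5 are low in the hormone-sensing class, Fgfr2 in the luminal progenitor class, and Hgf and Igfbp3 in both luminal classes.

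The epithelial classes were tested against each other in edgeR (quasi-likelihood test on summed UMI counts, library as a block, Benjamini-Hochberg adjustment over all genes). Of the 10 genes 8 passed the filter on low counts; Fgf7 and Fgf10 did not. Between hormone-sensing luminal-like and luminal progenitor-like cells, 6 of the 8 passed the threshold of 0.05, 1 higher and 5 lower, where 51.2% of the 12060 genes tested passed (27% higher, 24.1% lower). Fgfr2 was higher in the hormone-sensing class by 5.16 ± 0.54 on the log2 scale (± SE, adjusted p = 3.02e-05). Igf1r was lower (log2 difference -4.51 ± 0.48, adjusted p = 2.97e-05), as was Igfbp5 (-6.05 ± 1.13, adjusted p = 0.00191). Fgfr1 and Fgf2 were lower as well, by -1.33 ± 0.17 (adjusted p = 1.31e-05) and -1.94 ± 0.50 (adjusted p = 0.00463). Fgf2 was low in both classes: luminal progenitor-like cells averaged 3.56 CPM, near the mean of T cell-like cells (4.21 CPM). Within libraries the luminal progenitor class was above the T cell-like one in 4 of 5. The exception was KO2, where T cell-like cells had 11.2 CPM from 7 UMIs. For Igf1 the difference was -1.40 ± 0.56 (adjusted p = 0.0495), and it lost its call when KO1, KO3, WT1 or WT2 was left out. Its mean in luminal progenitor-like cells (4.10 CPM) was also near that of T cell-like cells (3.46 CPM). Without KO3 the differences were larger for Fgfr2 (5.66 ± 0.31), Igf1r (-4.98 ± 0.35) and Igfbp5 (-7.15 ± 0.64). Hgf (-1.69 ± 0.80) and Igfbp3 (-0.25 ± 0.54) did not pass.

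Between basal/myoepithelial-like and luminal progenitor-like cells 5 of the 8 genes passed, where 44.8% of all genes tested did (22.8% higher, 22% lower). Igfbp3 was higher in the basal class by 7.21 ± 0.50 (adjusted p = 9.93e-07), Hgf by 6.07 ± 0.51 (adjusted p = 2.33e-07) and Fgfr2 by 3.86 ± 0.56 (adjusted p = 0.000321). Fgf2 was higher by 1.58 ± 0.52 (adjusted p = 0.0232), a call that was lost without KO1, KO2, KO3 or WT1. Fgfr1 was lower by -0.56 ± 0.17 (adjusted p = 0.0151), a call lost without KO2 or WT2. Igf1r (0.03 ± 0.41), Igfbp5 (-0.31 ± 0.84) and Igf1 (-0.96 ± 0.84) did not pass.

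Between the basal/myoepithelial-like and hormone-sensing luminal-like classes 7 of the 8 passed, where 54.8% of all genes did (26.2% higher, 28.7% lower). Hgf (7.77 ± 0.51, adjusted p = 1.14e-08), Igfbp3 (7.46 ± 0.47, adjusted p = 3.11e-07) and Igfbp5 (5.74 ± 1.14, adjusted p = 0.00242) were higher in the basal class. So were Igf1r (4.54 ± 0.49, adjusted p = 2.54e-05), Fgf2 (3.52 ± 0.55, adjusted p = 7.98e-05) and Fgfr1 (0.77 ± 0.17, adjusted p = 0.00149). Fgfr2 was lower in the basal class by -1.30 ± 0.44 (adjusted p = 0.029), a call that was lost without KO1, KO2 or WT2. Igf1 (0.44 ± 0.90) did not pass. The Hgf values rest on 4 UMIs in the hormone-sensing class and 8 in the luminal progenitor class.

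Other genes of the same pathways were read in these contrasts from 4 lists. Genes counted as higher or lower are those that passed the threshold of 0.05. Over all genes, 27% passed as higher and 24.1% as lower between the hormone-sensing and luminal progenitor classes. For basal against luminal progenitor the shares were 22.8% and 22%, and for basal against hormone-sensing 26.2% and 28.7%. The medians over all genes given beside the FGF list hold for the other lists too. In the FGF list, 21 of 44 genes were tested, members included. Between the hormone-sensing and luminal progenitor classes 8 were higher and 13 lower, and the median difference was -0.67 beside 0.02 over all genes. Spry2 and Dusp6, feedback inhibitors of receptor tyrosine kinase signalling, were lower in the hormone-sensing class. Spry2 differed by -3.05 ± 0.20 (adjusted p = 3.60e-08), with 7.91 ± 2.17 CPM there and 62.8 ± 17.4 CPM in luminal progenitor-like cells. Dusp6 differed by -2.70 ± 0.25 (adjusted p = 3.26e-06), with 41.01 ± 10.6 CPM against 264 ± 88.3 CPM. Fgf13, an intracellular family member that is not secreted, was higher there by 5.27 ± 0.35 (adjusted p = 3.97e-08) at 12.6 ± 3.66 CPM, and so was Il17rd, an inhibitor of FGF signalling (3.08 ± 0.45, adjusted p = 5.17e-05). Readout genes of the list were split between the 2 luminal classes. Like Spry2 and Dusp6, Etv5 (3.80 against 7.77 CPM) and Spred1 (28.7 against 41.9 CPM) had the lower mean in the hormone-sensing class. Etv4 (6.01 against 1.58 CPM) and Spred2 (27.5 against 15.1 CPM) had the higher mean there. Fgfr1, Igf1r and Met were higher in the luminal progenitor class, and which receptor goes with these levels was not tested.

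In the basal class the FGF list was higher for 10 and lower for 2 of 21 against luminal progenitor-like cells (median 0.87 beside -0.01 over all genes). Against hormone-sensing cells it was higher for 13 and lower for 4 (median 1.03 beside -0.06). Etv4 and Etv5 encode transcription factors that FGF signalling is known to induce. Etv4 stood at 63.7 ± 48.5 CPM in basal, 6.01 ± 1.21 in hormone-sensing and 1.58 ± 1.40 in luminal progenitor-like cells (basal minus luminal progenitor 5.41 ± 0.41, adjusted p = 1.53e-07). Etv5 stood at 59.5 ± 38.6, 3.80 ± 1.49 and 7.77 ± 1.53 CPM in the same order (basal minus hormone-sensing 3.83 ± 0.27, adjusted p = 2.66e-08). Spred1, another inhibitor of the pathway, was at 174 ± 17.9 CPM in basal cells against 28.7 ± 2.68 and 41.9 ± 2.13 CPM in the hormone-sensing and luminal progenitor classes.

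In the IGF list 20 of 23 genes were tested. Against luminal progenitor-like cells 3 were higher and 11 lower in the hormone-sensing class (median -1.06), and 8 were higher and 2 lower in the basal class (median 0.06). Between the basal and hormone-sensing classes 11 were higher and 3 lower (median 0.82). Igfbp2 (423 ± 216 CPM, n = 5) and Pappa (111 ± 37.5 CPM), a protease that cleaves IGF-binding proteins, were basal, with at most 2.02 CPM in any library of either luminal class. Igfbp7 stood at 230 ± 71.5 CPM in basal, 35.1 ± 14.2 in luminal progenitor and 6.401 ± 2.18 in hormone-sensing luminal-like cells. Irs2, an adaptor of insulin and IGF receptors, was lower in hormone-sensing than in luminal progenitor-like cells by -1.88 ± 0.18 (adjusted p = 1.18e-06), and Grb10, an adaptor that restrains these receptors, by -2.46 ± 0.27 (adjusted p = 3.16e-06). Stc2, whose product inhibits PAPPA, was higher by 5.63 ± 0.61 (adjusted p = 4.28e-05), at 187 ± 19.6 CPM.

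In the HGF list 8 of 11 genes were tested. Met, the HGF receptor, was highest in the luminal progenitor class at 135 ± 33.5 CPM, against 26.0 ± 23.9 in the basal and 19.4 ± 11.1 CPM in the hormone-sensing class. Between the hormone-sensing and luminal progenitor classes its difference was -3.01 ± 0.30 (adjusted p = 6.58e-06), and 1 gene of the list was higher and 3 lower (median -0.20). Against luminal progenitor-like cells 1 was higher and 7 lower in the basal class (median -1.59), and against hormone-sensing cells 2 were higher and 5 lower (median -1.17). Spint1, which encodes an inhibitor of HGF activation, was at 10.1 ± 4.66 CPM in basal cells against 171 ± 53.6 and 123 ± 38.4 in the hormone-sensing and luminal progenitor classes. St14, which encodes a protease that can activate HGF, was at 30.5 ± 14.3 CPM against 162 ± 34.2 and 228 ± 17.7. Hgf and Met were thus called in opposite directions between the basal and luminal progenitor classes.

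In the list of heparan sulfate proteoglycans and their enzymes 17 of 19 genes were tested. It was higher for 2 and lower for 11 between the hormone-sensing and luminal progenitor classes (median -0.53). In the basal class it was higher for 9 and lower for 1 against luminal progenitor-like cells (median 0.72) and higher for 11 and lower for 1 against hormone-sensing cells (median 1.37). Hspg2, which encodes perlecan of basement membranes, stood at 96.4 ± 16.2 CPM in basal cells against 4.75 ± 2.14 and 6.68 ± 1.28 CPM in the hormone-sensing and luminal progenitor classes, and at 401 ± 66.5 CPM in fibroblast-like cells. Sdc4, which encodes syndecan-4, was lower in basal than in luminal progenitor-like cells by -1.65 ± 0.15 (adjusted p = 6.13e-07). Gpc1, a glypican, was at 1.51 ± 1.21 CPM in luminal progenitor-like cells against 31.0 ± 7.65 in hormone-sensing and 32.8 ± 15.7 in basal cells.

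By genotype label no member passed in any class. In fibroblast-like cells 0 of the 10 genes and 0% of the 14125 genes tested passed in edgeR, 97 of which had an unadjusted p under 0.05; DESeq2 called 0 there as well. The members' adjusted p was 0.99996 for each. Fgf10 stood at 50.4 ± 35.0 CPM in the knockout-labelled libraries (n = 3) and 35.4 ± 30.3 in wild type (n = 2), with a log2 difference of knockout-labelled over wild type of 0.49 ± 0.80. For Hgf the difference was 0.66 ± 0.69 and for Igf1 0.18 ± 0.50. The receptors differed by -0.31 ± 0.28 (Fgfr1), -0.16 ± 0.37 (Fgfr2) and -0.04 ± 0.19 (Igf1r). Fgf2 differed by -0.26 ± 0.40 and Igfbp5 by -0.24 ± 0.66. Igfbp3 differed by -0.97 ± 0.85. Of these 9 differences 7 changed sign when a library was left out: without WT2 they were -0.17 for Fgf10, 0.029 for Fgf2, 0.18 for Igf1r, 0.69 for Igfbp3 and 0.44 for Igfbp5, and without WT1 -0.28 for Igf1 and 0.34 for Fgfr2.

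Fgf7 was the member whose libraries did not overlap in this class, with 32.9, 35.4 and 29.2 CPM in the knockout-labelled and 39.2 and 37.9 CPM in the wild-type libraries. Its log2 difference was -0.27 ± 0.18 (unadjusted p = 0.193), and 8.86% of all genes tested in this class did not overlap either.

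**Figure D5:**
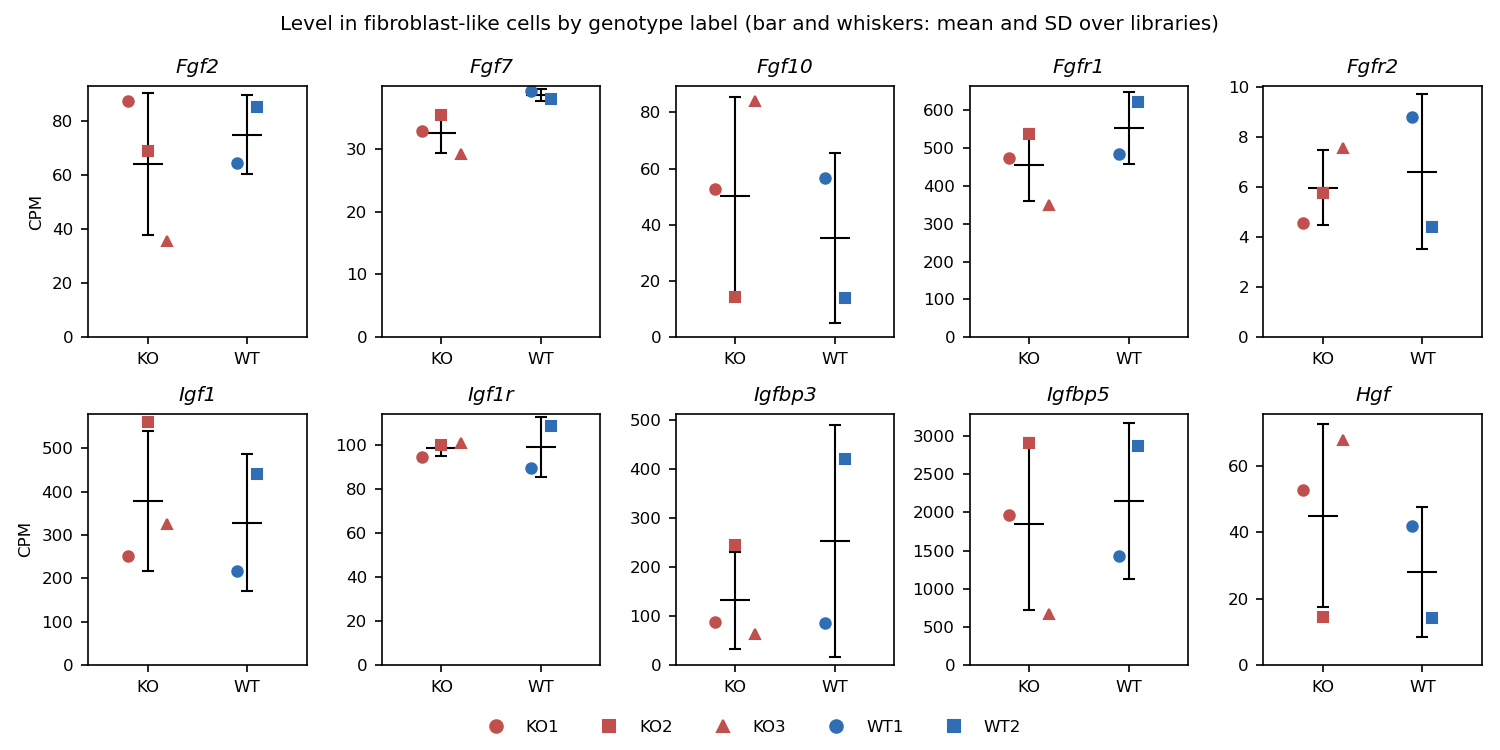
CPM of each of the 10 genes in fibroblast-like cells, 1 point per library, with the mean and SD of the 3 knockout-labelled and 2 wild-type libraries. Ranges of the labelled genotypes overlap for 9 genes, and for Fgf7 the wild-type points at 37.9 and 39.2 CPM lie above the others.

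Over the 12 classes tested, fibroblast-like cells included, 0 of 54 pairs of member and class passed in edgeR, and 0 had an unadjusted p under 0.05. Pairs with at least 20 CPM whose libraries did not overlap follow, each beside the share of all genes tested in its class. Pairs at lower levels that did not overlap are not listed. Igfbp3 in basal/myoepithelial-like cells stood at 346, 353 and 168 CPM in the knockout-labelled and 440 and 567 CPM in the wild-type libraries (289 ± 105 against 503.8 ± 89.6, log2 difference -0.76 ± 0.36, edgeR adjusted p = 0.9999). There, 10.2% of genes tested did not overlap. Fgfr1 in luminal progenitor-like cells was at 283, 316 and 167 CPM against 324 and 335 CPM (-0.36 ± 0.30), beside 13% of genes.

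Igf1r in dendritic-like cells, from 87 UMIs, was at 23.3 ± 3.59 against 16.9 ± 1.36 CPM (0.53 ± 0.38), beside 14.5% of genes. Igfbp5 did not overlap in T cell-like cells, from 197 UMIs (15.5 ± 13.6 knockout-labelled against 37.3 ± 14.3 CPM, edgeR unadjusted p = 0.198, beside 15.5% of genes). Nor did it in B lineage-like cells, from 99 UMIs (23.3 ± 4.35 against 41.6 ± 8.42 CPM, edgeR unadjusted p = 0.135, beside 27.4%). Both levels are low beside the 1969.5 CPM of fibroblast-like cells. Igfbp3 in neutrophil-like cells did not overlap either, on 14 UMIs, beside 25.7% of the genes tested in that class, and was itself below the filter. It stood at 11.8 and 9.14 CPM in KO1 and KO2, from 1 UMI each, and at 116 and 14.5 CPM in WT1 and WT2. The WT1 value rests on 8 UMIs in 3.85% of 26 cells. The B lineage-like class had 2 libraries of each genotype.

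Over all cells summed, where fewer cells of a type and less RNA per cell cannot be told apart, 0 of the 10 genes and 0% of 17336 genes passed in edgeR, 209 of them with an unadjusted p under 0.05; DESeq2 called 2 genes and no member. The log2 differences were 0.77 ± 0.73 for Hgf, 0.74 ± 0.85 for Fgf10, 0.18 ± 0.39 for Igf1, 0.09 ± 0.60 for Fgfr2 and 0.03 ± 0.19 for Igf1r. They were -0.11 ± 0.52 for Fgf2, -0.13 ± 0.25 for Fgf7, -0.20 ± 0.28 for Fgfr1, -0.26 ± 0.50 for Igfbp5 and -1.03 ± 0.75 for Igfbp3. Of the pathway lists, 28 FGF, 21 IGF, 9 HGF and 17 proteoglycan genes were tested in fibroblast-like cells and none passed; the medians were 0.12, -0.15, -0.33 and -0.02 beside -0.00083 over all genes. The gene of the lists with the smallest p was Fgf1 (0.61 ± 0.27). At this number of mice and this spread between libraries the test could see large changes only. Of genes changed 4-fold in simulated data it recovered 65% in fibroblast-like cells, and of genes changed 2-fold 1%. Every gene was simulated at the same dispersion (0.11). Members that varied more between libraries, such as Fgf10 (44.4 ± 30.1 CPM in this class), were not simulated at their own spread, so 65% may not hold for them.

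The genes whose levels most resembled each member's were found by Pearson correlation of log2(CPM + 1) over 63 sums of 15 classes and 5 libraries, among 8218 genes. The sums of a class share cell type and those of a library share depth, so r is a description. For Fgf10 those near it included Bmper (r = 0.917), which encodes a modulator of bone morphogenetic proteins, and the homeobox gene En1 (0.882). For Fgf2 they were Sema3c (0.849), Vgll3 (0.840) and Sdk1 (0.836), and for Fgf7 Mmp23 (0.865), Pcdh20 (0.865) and Ssc5d (0.859). Igfbp3 was nearest to the matrix genes Fbln2 (0.879), Eln (0.871) and Mgp (0.863). Igfbp5 was nearest to the glypican gene Gpc6 (0.884), Tgfb2 (0.840) and Efna5 (0.827). Fgfr2 resembled Trim29 (0.846), Plch2 (0.841) and Wnt5a (0.826), and Fgfr1 resembled Nenf (0.867), Samd4b (0.851) and Ptov1 (0.847). Lower values were reached for Igf1 with Rab3il1 (0.797), Colec12 (0.793) and Fap (0.786), for Hgf with Pla2g7 (0.752), Lrp1 (0.712) and Camkk2 (0.701), and for Igf1r with Csf1 (0.737) and Cebpd (0.696).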

How the data were processed

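UMI counts per gene and cell were deposited by the authors as whole-number matrices from Cell Ranger 6.0.2, or 6.1.2 for the library KO3, which the file headers name. The submitters' processing notes name mm10. The kit was the 10x 3′ kit, version 3, per the labels. The members and gene lists were chosen with earlier results of these data known. Barcodes under 500 detected genes or over 15% mitochondrial UMIs were dropped, leaving 28588 of 32472, and 1754 likely doublets (0.8% per 1000 barcodes) were removed. Clusters (leidenalg 0.10.2, resolution 1, 30 principal components of 2000 genes) were drawn without 97 genes, the members and their pathway lists among them. They were named where at least 3 markers of a class were detected in 10% of cells and its score led the next by 0.3. Counts were summed per class and library and tested in edgeR 4.0.16 (filterByExpr, TMM, robust quasi-likelihood, Benjamini-Hochberg threshold 0.05), each class with at least 2 libraries per genotype alone; SE is the absolute log2 difference over the square root of F. CPM carry no TMM factors. DESeq2 was an alternative. Named genes were the 10 members (by genotype outside fibroblast-like cells, those with an unadjusted p under 0.05 or with no overlap of libraries and at least 20 CPM) and, per list and contrast, up to 4 others with the smallest p. The fits were tested on simulated data. Some genes among those most like a member are not reported here. Gene positions are from GENCODE mouse release 21 (mm10), matched by ID. The mice are separate per the design text; intervals and floors (3 counts) cover counting error only.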

Additional observations from a re-analysis of the deposited data

How the results depend on the processing

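No member was called by genotype under any alternative: DESeq2, no low-count filter, stricter cell filters, doublets kept, finer clustering, each library left out, or a replicate block. The number of all genes called did move from 0. Without the low-count filter it was 78 in luminal progenitor-like, 28 in macrophage-like, 21 in T cell-like, 19 in dendritic-like, 9 in monocyte-like, 6 in neutrophil-like, 5 in B lineage-like, 4 in basal/myoepithelial-like, 3 in NK/innate lymphoid-like and 2 in blood endothelial-like cells. DESeq2 called 3 genes in macrophage-like, 2 in blood endothelial-like and 1 in hormone-sensing luminal-like cells and 2 over all cells; finer clustering gave 14 in blood endothelial-like cells and keeping doublets 3 in B lineage-like cells. With 1 library left out (an arm of 1 library is then assumed to vary like the other) the counts ranged from 1 to 34 in B lineage-like, 1 to 17 in neutrophil-like, 0 to 8 in T cell-like and in basal/myoepithelial-like, 0 to 7 in macrophage-like, 0 to 2 in dendritic-like and in monocyte-like, and 0 to 1 in NK/innate lymphoid-like and in luminal progenitor-like cells. The highest counts came without KO2 in B lineage-like cells and without WT2 in neutrophil-like, T cell-like, basal/myoepithelial-like and macrophage-like cells. The cause of these moves was not tested. Neutrophil-like cells gave no value under the stricter cell filter.

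Among the members in fibroblast-like cells and over all cells, most genotype differences changed direction when 1 library was left out; Fgf7, Fgfr1 and Hgf in fibroblast-like cells and Hgf and Fgf10 over all cells did not. With each library left out, the log2 differences in fibroblast-like cells ranged from -0.17 to 1.73 for Fgf10, -0.51 to 0.041 for Fgf2, -0.54 to 0.34 for Fgfr2, -0.28 to 0.87 for Igf1, -0.23 to 0.18 for Igf1r, -1.86 to 0.69 for Igfbp3 and -0.80 to 0.44 for Igfbp5. Over all cells they ranged from -0.67 to 0.33 for Fgf2, -0.33 to 0.058 for Fgf7, -0.39 to 0.011 for Fgfr1, -0.43 to 0.50 for Fgfr2, -0.31 to 0.93 for Igf1, -0.11 to 0.14 for Igf1r, -1.77 to 0.56 for Igfbp3 and -0.66 to 0.10 for Igfbp5. Between basal/myoepithelial-like and luminal progenitor-like cells the members called fell from 5 to between 3 and 4 with a library left out; the difference of Igf1r there ranged from -0.017 to 0.095 and was -0.043 without the filter. With doublets kept, Hgf (-1.62) and Igfbp3 (-1.55) also passed as lower in hormone-sensing luminal-like than in luminal progenitor-like cells, and Igf1 (1.37) as higher in basal/myoepithelial-like than in hormone-sensing cells; without the low-count filter Igf1 (-1.38) lost its call between the luminal classes.

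Replicate numbers 1 and 2 occur in both genotypes, but the labels do not say that they mark a shared batch. The difference of replicate 2 from replicate 1 correlated between the genotypes across genes with r = 0.70 in fibroblast-like, 0.71 in hormone-sensing luminal-like and 0.07 in T cell-like cells. With a replicate block, which leaves KO3 without a partner, edgeR called 43 genes in hormone-sensing luminal-like, 22 in luminal progenitor-like, 16 in monocyte-like, 8 in basal/myoepithelial-like, 8 in macrophage-like, 6 in fibroblast-like, 2 in dendritic-like, 2 in blood endothelial-like, 1 in B lineage-like and 1 in T cell-like cells. Under this pairing the differences in fibroblast-like cells were 0.24 for Igfbp5, 0.059 for Fgf2 and -0.046 for Fgf10, and over all cells 0.086 for Igfbp5, 0.20 for Fgf2 and -0.33 for Fgfr2, each opposite in sign to the fit without the block.

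Depth limits the ligands in epithelial cells: per class, Fgf10 rests on 0 to 9 UMIs, Fgf7 on 7 to 20 and Hgf on 4 to 118. Under the stricter cell filter no neutrophil-like sums remained, and basal/myoepithelial-like cells then had the highest mean of Igf1r (140 CPM).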

Other observations

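Some small or unnamed groups of cells also held members of this set, most of them on few cells. Schwann/glial-like cells, scored in KO1, KO2 and WT2 with 28, 71 and 87 cells, had 113, 42.0 and 52.8 CPM of Fgf2. Fibroblast-like cells of the same libraries had 87.2, 68.9 and 85.1 CPM. For Igf1r the Schwann/glial-like values were 249, 111 and 165 CPM. An unnamed cluster led by Mmp12, Ctss and Rgs1 had 94.6 CPM of Hgf in KO1 (19 UMIs in 21 cells) and 57.8 CPM in WT1 (28 UMIs in 45 cells). An unnamed cluster led by Myh11, Rgs5 and Acta2, genes of contractile mural cells, had 1790, 3799, 1938, 1699 and 1928 CPM of Igfbp5 and 136, 209, 87.4, 166 and 126 CPM of Igf1r. The unnamed cluster of 3593 cells, most of them from KO1, had close marker scores for macrophages (1.31) and luminal progenitors (1.20) and was led by Retnla and Lyve1. Its Fgf10 level was 25.0 CPM in KO1 and 48.3 CPM in WT1, and its Igfbp5 level 1800 and 1266 CPM.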
